A study of Mus musculus with 6 samples.

Results

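The genes described here are 10 genes of the YAP and TAZ programme, read from a table of 35275 genes measured by RNA sequencing in mouse 3T3 cells, an immortalised fibroblast line. They were chosen by name: the co-activators Yap1 and Wwtr1 (the gene of TAZ), their DNA-binding partner Tead1, and the targets and regulators Ccn1, Ccn2, Ankrd1, Amotl2, Axl, Ajuba and Lats2. All 10 were found by their current symbols, Ccn1 being the older Cyr61 and Ccn2 the older Ctgf. The 3 libraries of the first group came from cells with a control construct, and the 3 of the second from cells with an overexpression construct for NNMT, nicotinamide N-methyltransferase, which uses S-adenosylmethionine to methylate nicotinamide. Both groups were kept for 48 h in methionine-free DMEM to which 10 µM methionine and 10% dialyzed serum had been added. The comparison asks which of these genes differ between cells with and without the NNMT construct in that medium. The labels call the samples biological replicates. No source used here gives the vector, the promoter or species of the construct, or says whether each culture had its own transduction. The p-values therefore measure the spread between these cultures only.

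YAP and TAZ do not bind DNA themselves and act by joining TEAD factors at target genes. In the Hippo pathway the kinases Stk3 and Stk4, with the scaffold Sav1, activate Lats1 and Lats2, which phosphorylate YAP and TAZ so that they are held in the cytoplasm or degraded. In fibroblasts YAP and TAZ are known to respond to cell spreading, matrix stiffness and serum, and several of their targets, such as Lats2, Amotl2 and Ajuba, encode proteins that act back on the pathway. Since YAP and TAZ are controlled largely at the protein level, the transcript levels below do not measure their activity.

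The libraries held between 31622254 and 39982080 reads recovered from the table (fragments, if pairs were counted), and each of the 10 genes rested on at least 1984 reads in every library. Levels are in FPKM, reads per kilobase of transcript scaled to the depth of the library, as mean ± SD with n = 3 per group. Log2 fold changes are NNMT minus control after taking log2(FPKM + 1), which makes the change of low genes look smaller than it is, and a gene is said to have risen or fallen where limma gave an adjusted p under 0.05 over all 10882 genes tested. Nnmt itself stood at 7.60, 5.25 and 6.51 FPKM in replicates 1, 2 and 3 of the control group, and at 15.7 FPKM in the NNMT library whose column has no replicate number (the unnumbered library), 15.03 in NNMT replicate 2 and 18.3 in replicate 3. All 9 fibroblast markers checked were expressed (their summed level was 5657 to 6020 FPKM in control and 7925 to 9384 in NNMT libraries, carried by Col1a1 and Col1a2), while those of epithelium, endothelium and fat summed to at most 0.239 FPKM and those of leukocytes to at most 2.16. The fibroblast markers did not move as one: Col1a1, Col1a2, Col3a1 and Pdgfrb rose, Thy1 (257 to 120 FPKM), Vim (1515 to 1044 FPKM) and Lum fell, and Pdgfra and Dcn were not called. The muscle genes Myod1 and Myog were at 0 in all libraries, and that list summed to at most 5.37 FPKM. The groups differed widely: 3806 genes rose and 3334 fell (4737 and 2647 when every library was rescaled to the same FPKM total), so that 65.6% of all tested genes passed the threshold. On the X chromosome 305 of 338 tested genes fell (median log2 fold change -0.70) and on Y all 7 rose (median 2.84), so the groups also differed in expression from the sex chromosomes. None of the 10 genes lies there, and this difference and the construct cannot be told apart. With limma-voom on the recovered reads 66.1% did, and the 10 genes had the same number of calls each way, 6 and 2.

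Of the 10 genes, 6 rose, 2 fell and 2 did not pass the test, with all 10 tested. Ccn1 rose most, followed by Amotl2, Yap1, Ajuba, Wwtr1 and Tead1. Axl and Ankrd1 fell, and Ccn2 and Lats2 were not called. The share called, 80%, stands beside 65.6% for all tested genes, the 6 that rose beside a background of 35.0%, and the 2 that fell beside 30.6%. The median log2 fold change of the 10 genes was 0.24, against 0.03 over all tested genes. In 7 of the 10 the libraries of the groups did not overlap, which was so for 69.9% of all tested genes. An exact two-sided permutation test on each gene gave p = 0.1 for these 7, the smallest p that 3 against 3 allows, and p = 0.2 for Ankrd1, 0.3 for Ccn2 and 0.7 for Lats2. As these are bulk samples, fewer cells expressing a gene and less RNA per cell cannot be told apart.

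**Figure D1:**
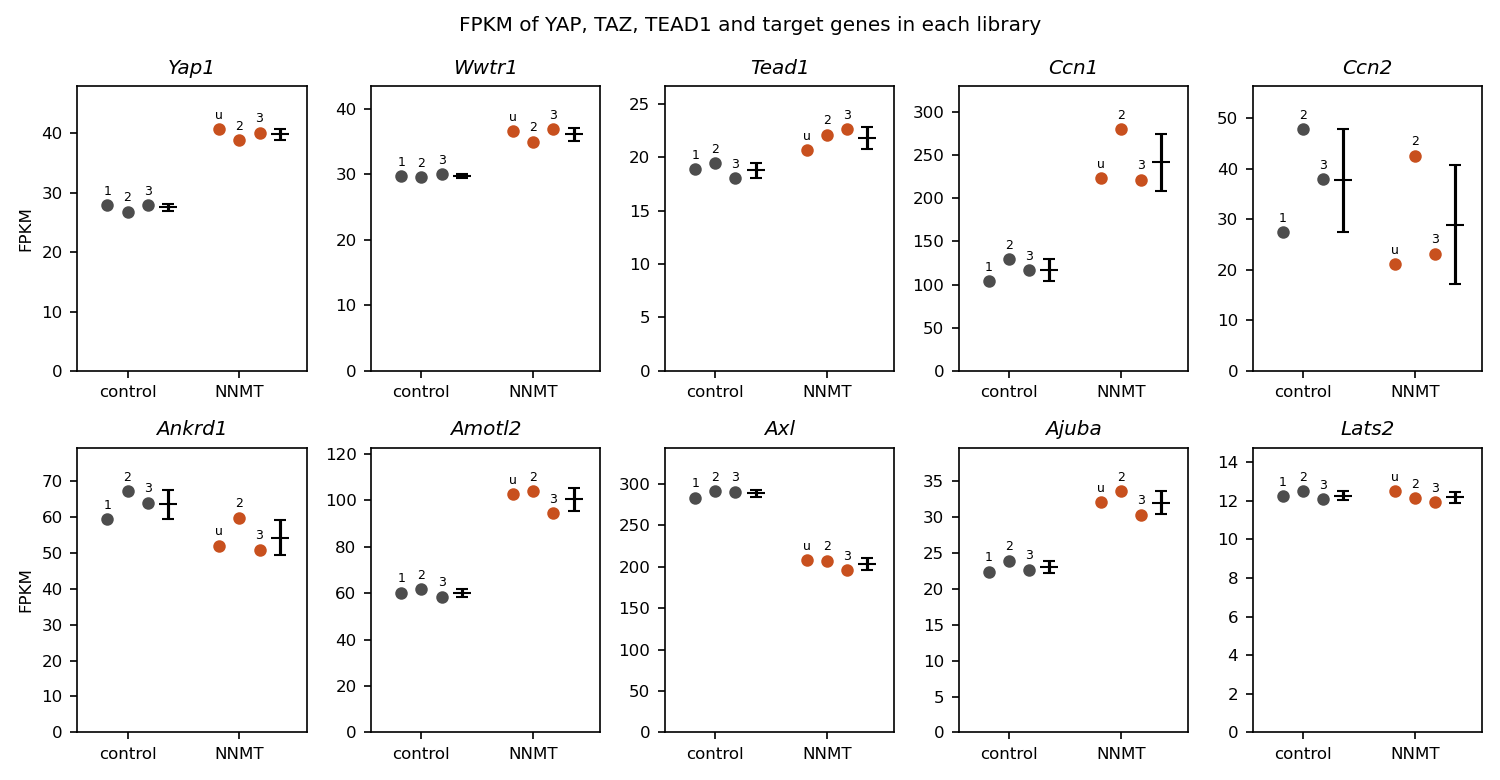
Level in FPKM (vertical axes from 0, a scale of its own for each gene) of the 10 genes in each library, with control libraries in grey and NNMT libraries in orange; digits are replicate numbers, u is the unnumbered NNMT library, and bars are mean ± SD of 3 libraries. Ccn1, Amotl2, Yap1, Ajuba, Wwtr1 and Tead1 are higher and Axl is lower in every NNMT library, whereas the groups overlap for Ccn2, Ankrd1 and Lats2.

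The promoters of these genes share a short sequence that TEAD factors are known to bind, and they are shown here because the genes that carry it moved in different directions. The letters GGAATG were searched on both strands (CATTCC on the strand shown when the match lies on the opposite one) in windows from 250 bases before to 50 bases after each start site annotated by RefSeq on GRCm38.p6. Of the 10 genes 8 had a window (Tead1 and Ccn2 had none), and all 8 held at least 1 match, beside 14.7% of all 32851 windows and 13.9% of 8344 tested genes with a window. Matches lay upstream of the start in 7 genes and 4 bases downstream of it in Lats2. Ankrd1 and Ajuba each held 2 matches, and 2 or more were held by 1.57% of all genes with a window. A match is a stretch of letters and not a shown binding site. The stretches of Ankrd1 and Amotl2, and most of that of Lats2, lie in annotated exons and are kept short. The stretches read as follows, 5′ to 3′ on the strand of the gene, with the matches in capitals.
Ccn1, chr3:145649986-145650235, minus strand, the 250 bases before the start: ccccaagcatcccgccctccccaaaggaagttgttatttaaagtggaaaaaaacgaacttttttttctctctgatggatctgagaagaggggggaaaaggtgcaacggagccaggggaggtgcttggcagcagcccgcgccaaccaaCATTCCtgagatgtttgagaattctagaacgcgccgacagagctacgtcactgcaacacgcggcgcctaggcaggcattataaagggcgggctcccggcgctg
Ankrd1, upstream match, chr19:36120039-36120064, minus strand: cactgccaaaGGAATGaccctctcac
Ankrd1, match nearer the start, chr19:36119952-36119977, minus strand: cactaagtctGGAATGaaaattcacc
Amotl2, chr9:102717729-102717754, plus strand: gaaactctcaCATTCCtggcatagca
Ajuba, chr14:54577800-54577867, minus strand: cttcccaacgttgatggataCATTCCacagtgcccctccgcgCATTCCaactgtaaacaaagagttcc
Axl, chr7:25788941-25788983, minus strand: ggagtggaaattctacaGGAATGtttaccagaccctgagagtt
Yap1, chr9:8004712-8004757, minus strand: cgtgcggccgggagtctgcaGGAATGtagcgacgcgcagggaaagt
Wwtr1, chr3:57576021-57576066, minus strand: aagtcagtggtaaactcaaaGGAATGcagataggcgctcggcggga
Lats2, chr14:57746104-57746129, minus strand: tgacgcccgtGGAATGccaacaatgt

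**Figure D2:**
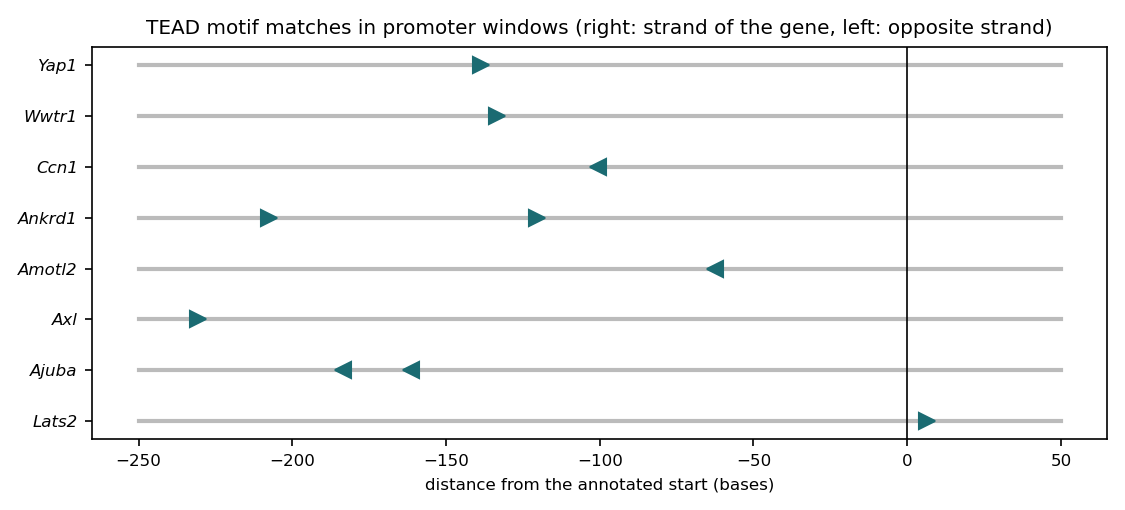
Position of each match in the promoter windows of the 8 genes, in bases from the annotated start (0, vertical line); grey lines span the window, and a triangle points right for a match on the strand of the gene and left for the opposite strand. In Ccn1 the match begins 103 bases and in Amotl2 65 bases before the start, and Lats2 alone has its match after the start.

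Both co-activators were higher in NNMT cells, Yap1 by more than Wwtr1. Yap1 (ENSMUSG00000053110, chromosome 9, 7931999 to 8004596 on the minus strand of GRCm38, like all positions of genes here) had levels of 27.9, 26.8 and 27.9 FPKM in replicates 1, 2 and 3 of the control group, and of 40.7 in the unnumbered NNMT library, 38.9 in NNMT replicate 2 and 40.1 in replicate 3. The lowest NNMT library was well above the highest control library. The mean went from 27.5 ± 0.646 to 39.9 ± 0.929 FPKM, a 1.45-fold rise (log2 fold change 0.52, SE 0.0446, limma adjusted p = 4.00e-06). Wwtr1 (ENSMUSG00000027803, chromosome 3, 57455649 to 57575910, minus strand) was measured at 29.7, 29.5 and 29.99 FPKM in the control libraries and at 36.5, 34.9 and 36.8 in the NNMT libraries, again without overlap. Its rise was 1.21-fold (log2 fold change 0.27, SE 0.0440, limma adjusted p = 0.000332). In FPKM, which depends on the transcript lengths used, the order of the pair turned around. The ratio of Yap1 to Wwtr1 was 0.907 to 0.941 in the control libraries and 1.09 to 1.11 in the NNMT libraries. In reads, Yap1 was already above Wwtr1 in the control libraries, at 15187 against 14600 in sum. Together they summed to 57.2 ± 0.832 FPKM in control and 76.0 ± 1.90 in NNMT cells. Both lie on chromosomes whose tested genes had a median log2 fold change above 0 (0.15 on chromosome 9 and 0.13 on chromosome 3), and the part of this in the rises was not tested. Amotl2 also lies on chromosome 9 and Ccn1 on chromosome 3. Medians of the autosomes ran from -0.23 (chromosome 4) to 0.29 (chromosome 16). The part of such shifts in the changes of the other genes named below was not tested either.

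The TEAD factors, through which both co-activators reach DNA, moved apart. Tead1 (ENSMUSG00000055320, chromosome 7, 112679318 to 112906807, plus strand) stood at 18.9, 19.4 and 18.02 FPKM in the control libraries and at 20.7, 22.1 and 22.6 in the NNMT libraries, a 1.16-fold rise (log2 fold change 0.20, SE 0.0520, limma adjusted p = 0.00559). The groups did not overlap, but the gap between the highest control library and the lowest NNMT library was small. Its 3 paralogues all fell, under each scaling tried: Tead2 from 28.7 ± 0.479 to 21.995 ± 0.924 FPKM, Tead3 from 17.9 ± 0.759 to 12.2 ± 0.303 and Tead4 from 14.7 ± 0.976 to 7.84 ± 0.633. Their log2 fold changes were -0.37, -0.52 and -0.83 (limma adjusted p = 7.23e-05, 9.25e-06 and 2.69e-06). The summed level of the 4 TEAD genes went from 80.0 ± 1.73 to 63.8 ± 0.546 FPKM, and Tead1 went from 23.5% ± 0.393 to 34.1% ± 1.38 of that sum. Such sums, shares and ratios depend on the lengths used, 9964 bases for Tead1 and 3076 to 3441 for its paralogues. In reads summed over the control libraries Tead1 was already the highest, at 19623 against 10188 for Tead2, 6451 for Tead3 and 4735 for Tead4. With more Yap1 and Wwtr1 and less TEAD transcript, the ratio of the summed co-activators to the summed TEAD genes was 0.689 to 0.739 in control and 1.16 to 1.22 in NNMT libraries.

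Other proteins that bind TEAD also differed. Vgll3, a vestigial-like cofactor that binds TEAD factors, stood at 14.8, 16.3 and 15.7 FPKM in the control libraries and at 35.6, 42.8 and 38.4 in the NNMT libraries. It rose 2.49-fold (log2 fold change 1.26, limma adjusted p = 1.60e-07), more than any of the 10 genes. Vgll4, a relative known to compete with YAP for TEAD, rose 1.44-fold, from 14.9 ± 0.403 to 21.5 ± 0.793 FPKM (log2 fold change 0.49, limma adjusted p = 1.02e-05). Vgll1 and Vgll2 were listed at 0 in all libraries. Vgll3 lies on chromosome 16, where the median log2 fold change of tested genes was 0.29, and the part of this in its rise was not tested.

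**Figure D3:**
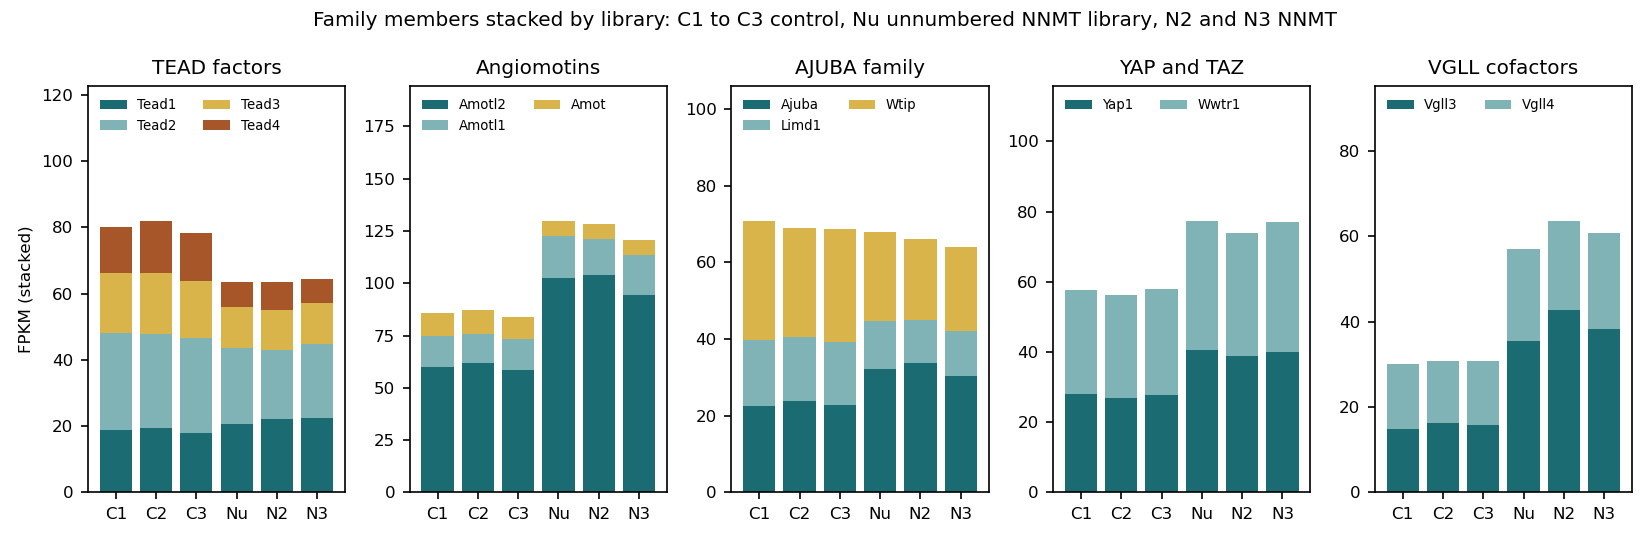
Stacked FPKM of related genes in each library (C1 to C3 control, Nu the unnumbered NNMT library, N2 and N3 NNMT replicates 2 and 3). The summed TEAD level is lower in NNMT cells with a larger share of Tead1, while Amotl2, Ajuba, Yap1 and Vgll3 take a larger share of their families.

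The 3 targets most used as a readout of YAP and TAZ did not move together. Ccn1 (ENSMUSG00000028195, chromosome 3, 145646976 to 145649981, minus strand) encodes a secreted matricellular protein that binds integrins, and its promoter holds the match shown above. It stood at 104, 130 and 116 FPKM in replicates 1, 2 and 3 of the control group and at 223 (unnumbered), 280 (replicate 2) and 222 (replicate 3) in the NNMT libraries. All NNMT libraries were above all control libraries, and replicate 2 was the highest of each group. The rise was 2.07-fold (log2 fold change 1.04, SE 0.0978, limma adjusted p = 7.53e-06), and 96.3% of tested genes had a smaller absolute log2 fold change.

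Ccn2 (ENSMUSG00000019997, chromosome 10, 24595442 to 24598683, plus strand), the closest relative of Ccn1 in use as a target gene, was not called. It stood at 27.5, 47.8 and 37.9 FPKM in replicates 1, 2 and 3 of the control group and at 21.1 (unnumbered), 42.6 (replicate 2) and 23.2 (replicate 3) in the NNMT libraries. Replicate 2 was again the highest of each group, and NNMT replicate 2 lay above 2 of the 3 control libraries. The means were 37.7 ± 10.2 and 29.0 ± 11.8 FPKM (log2 fold change -0.40, 95% interval -1.13 to 0.32, limma adjusted p = 0.278). Its SE of 0.302 was the largest of the 10 genes, the other 9 having SEs of 0.0440 to 0.0978, so that neither a fall by 1.13 nor a rise by 0.32 on the log2 scale lies outside the interval. Without NNMT replicate 2 the log2 fold change was -0.71 (adjusted p = 0.0653) and without the unnumbered NNMT library it was -0.22 (adjusted p = 0.640). If the unnumbered library is taken as replicate 1, by elimination, Ccn2 was lower in the NNMT library of each of the 3 pairs of equal number, and limma with the replicate as a block called it (log2 fold change -0.40, adjusted p = 0.00492). With the 2 pairs numbered in the columns it was also called (log2 fold change -0.42, limma adjusted p = 3.09e-08). That p rests largely on the spread of other genes, since a block over 4 libraries leaves little spread of Ccn2 itself to measure. The falls in these pairs were unequal, from 47.8 to 42.6 FPKM in replicate 2 and from 37.9 to 23.2 in replicate 3.

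Ankrd1 (ENSMUSG00000024803, chromosome 19, 36111961 to 36120099, minus strand), a muscle ankyrin repeat protein, fell slightly. It stood at 59.3, 67.2 and 64.0 FPKM in the control libraries and at 52.0, 59.7 and 50.9 in the NNMT libraries, with replicate 2 the highest of each group. NNMT replicate 2 lay just above control replicate 1, so the groups overlapped. The fall was 1.17-fold (log2 fold change -0.23, SE 0.0687, limma adjusted p = 0.0141). The call was lost without control replicate 2 (adjusted p = 0.0632), without NNMT replicate 3 (adjusted p = 0.0665) and with equal FPKM totals (adjusted p = 0.0662, log2 fold change -0.15).

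The unequal movement shows in ratios within a library, which rescaling a library as a whole leaves as they are. Ccn1 stood at 2.71 to 3.79 times the level of Ccn2 in control libraries and at 6.57 to 10.6 times in NNMT libraries. Relative to Ankrd1 it stood at 1.76 to 1.93 in control and 4.30 to 4.68 in NNMT libraries. The ratio of Ankrd1 to Ccn2 overlapped between the groups, at 1.41 to 2.16 and 1.40 to 2.46. Replicate 2 was the highest library of both groups for 5 of the 10 genes (Ccn1, Ccn2, Ankrd1, Amotl2 and Ajuba), and for 11.2% of all tested genes. What set replicate 2 apart was not tested.

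**Figure D4:**
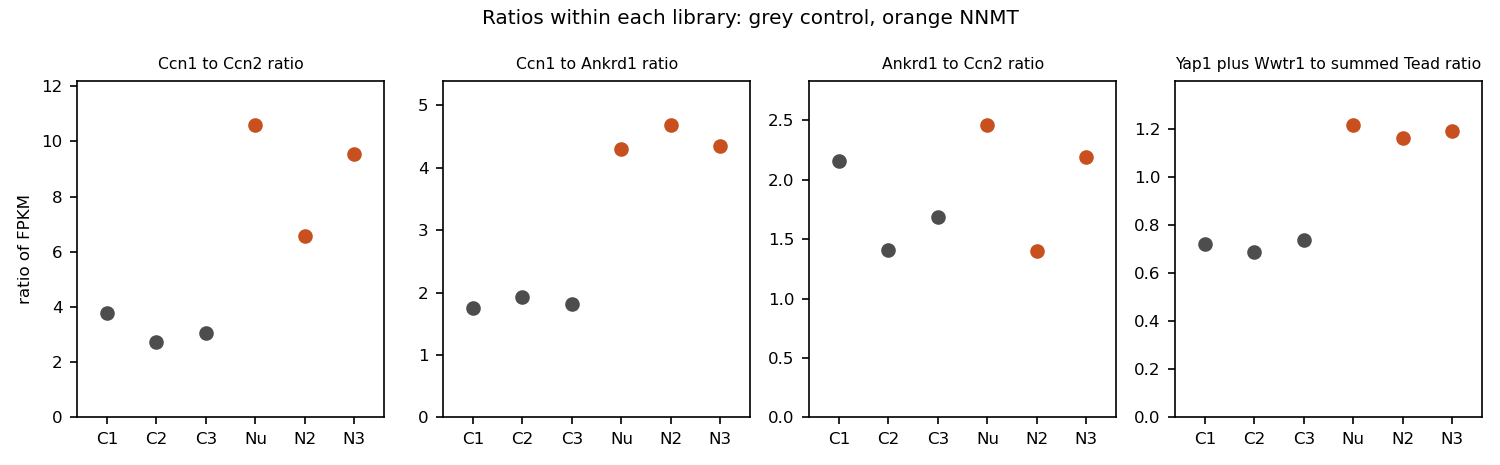
Ratios of FPKM within each library (vertical axes from 0), grey for control and orange for NNMT libraries, named as C1 to C3, Nu, N2 and N3. The ratios of Ccn1 to Ccn2, of Ccn1 to Ankrd1 and of the co-activators to the TEAD genes separate the groups, and the ratio of Ankrd1 to Ccn2 does not.

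Among the targets that act back on the pathway, Amotl2 and Ajuba rose and Lats2 did not change detectably. Amotl2 (ENSMUSG00000032531, chromosome 9, 102716672 to 102733418, plus strand) encodes an angiomotin-like scaffold that binds YAP and keeps it out of the nucleus. It stood at 60.1, 61.6 and 58.4 FPKM in control and at 102, 104 and 94.5 in the NNMT libraries, with no overlap, a 1.67-fold rise (log2 fold change 0.73, SE 0.0504, limma adjusted p = 8.97e-07). Its relatives went different ways: Amotl1 rose from 14.6 ± 0.293 to 18.7 ± 1.34 FPKM (named after its values were seen), and Amot fell from 11.02 ± 0.224 to 7.08 ± 0.190 (log2 fold change -0.57, limma adjusted p = 4.24e-06). Amot is X-linked, where the median log2 fold change was -0.70 as given above. Amotl2 made up 70.1% ± 0.584 of the summed FPKM of the angiomotin family in control and 79.5% ± 1.40 in NNMT cells.

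Ajuba (ENSMUSG00000022178, chromosome 14, 54567472 to 54577558, minus strand), a LIM protein that binds LATS kinases and lowers their action on YAP, stood at 22.4, 24.0 and 22.7 FPKM in control and at 32.1, 33.6 and 30.4 in the NNMT libraries. It rose 1.39-fold (log2 fold change 0.46, SE 0.0524, limma adjusted p = 3.00e-05), with no overlap. Its family members Limd1 and Wtip, which can also bind LATS kinases, fell under each scaling tried, from 16.8 ± 0.369 to 11.9 ± 0.660 and from 29.6 ± 1.2504 to 22.03 ± 1.05 FPKM (log2 fold changes -0.47 and -0.41, limma adjusted p = 2.61e-05 and 6.54e-05). Ajuba thus went from 33.1% ± 1.49 to 48.6% ± 2.05 of the summed FPKM of these 3 genes.

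Lats2 (ENSMUSG00000021959, chromosome 14, 57689662 to 57758388, minus strand), the kinase that is both an inhibitor and a target of YAP and TAZ, stood at 12.2, 12.5 and 12.1 FPKM in control and at 12.5, 12.1 and 11.9 in the NNMT libraries. The groups overlapped, although control replicate 2 was above every NNMT library and NNMT replicate 3 below every control library, and the 95% interval of the log2 fold change ran from -0.11 to 0.09 (limma adjusted p = 0.862). Its span overlaps that of another tested gene, Gm20430, and since the strand rule of the counting is not known its reads may not all be its own.

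Axl (ENSMUSG00000002602, chromosome 7, 25757273 to 25788705, minus strand), the receptor tyrosine kinase for Gas6, moved the opposite way to Ccn1. It stood at 284, 292 and 290 FPKM in control and at 208, 207 and 196 in the NNMT libraries. Every NNMT library lay below every control library, and Axl fell 1.42-fold (log2 fold change -0.50, SE 0.0446, limma adjusted p = 5.11e-06). Per length, Axl was the most abundant of the 10 genes in control cells, at 289 ± 4.34 FPKM against 117 ± 12.8 for Ccn1, and in NNMT cells Ccn1 stood first, at 242 ± 33.0 against 204 ± 6.98 for Axl. Amotl2 and Ankrd1 overlapped in control libraries and were apart in NNMT libraries, where Amotl2 was higher. The range of Ccn2 overlapped those of Wwtr1 and Yap1 in control cells and those of Yap1, Wwtr1, Ajuba and Tead1 in NNMT cells, so their order relative to Ccn2 is not resolved. Lats2 was the lowest in both groups.

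Further targets from a published YAP and TAZ signature also split. Of 16 such genes outside the 10, 14 were tested, of which 8 rose, 3 fell and 3 were not called. The share called was 78.6% (65.6% of all tested genes), with 57.1% rising (35.0%) and 21.4% falling (30.6%), and the median log2 fold change was 0.29. The smallest adjusted p belonged to Ccdc80, a secreted matrix protein, which rose from 26.3 ± 0.275 to 69.6 ± 3.24 FPKM (log2 fold change 1.37, limma adjusted p = 8.90e-09). F3, the tissue factor that starts coagulation, rose 3.26-fold to 76.3 ± 5.57 FPKM (log2 fold change 1.66, limma adjusted p = 1.71e-08). Tgfb2, a ligand of the TGF-beta family, rose from 0.568 ± 0.0800 to 2.21 ± 0.188 FPKM and Fjx1 from 1.82 ± 0.202 to 4.66 ± 0.363. Tgfb2 passed the filter on low values through its level in NNMT cells, so its call, counted among the 8, is no support for the list. Ccdc80 lies on chromosome 16 (median log2 fold change 0.29), and the part of this was not tested.

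The 3 that fell, named after their values were seen, were the kinase Nuak2 (10.98 ± 1.27 to 6.97 ± 0.896 FPKM), the membrane protein Crim1 (33.6 ± 4.64 to 25.6 ± 3.33) and the Rac exchange factor Dock5 (11.8 ± 0.427 to 9.47 ± 0.277). Crim1, whose span overlaps the tested gene Fez2, missed the threshold without the unnumbered NNMT library (adjusted p = 0.0509). Replicate 2 was the highest of each group in 2 of the 14 tested targets, Nuak2 and Crim1, which is near the share of 11.2% of all tested genes. Myof, Ptpn14 and Asap1 were not called, with log2 fold changes of 0.05, -0.03 and -0.06. Igfbp3 and Nt5e were near 0 and not tested. Of 10 of these targets with a promoter window, 2 held the TEAD letters (Crim1 and Ptpn14), against 8 of 8 above. That share of 20% stands beside 13.9% of tested genes with a window.

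The other genes of the CCN family, secreted proteins built like Ccn1 and Ccn2, were also looked at. Ccn4 rose from 19.0 ± 0.781 to 28.9 ± 0.681 FPKM (log2 fold change 0.58, limma adjusted p = 3.21e-06). Ccn5, which lacks the C-terminal domain of its relatives, rose from 0.737 ± 0.0819 to 18.4 ± 0.919 FPKM, and it too passed the filter through its level in NNMT cells. Ccn3 stood at 0.152 to 0.164 FPKM in control and 0.340 to 0.537 in NNMT libraries, and Ccn6 at no more than 0.0906 FPKM in any library. Neither was tested.

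**Figure D5:**
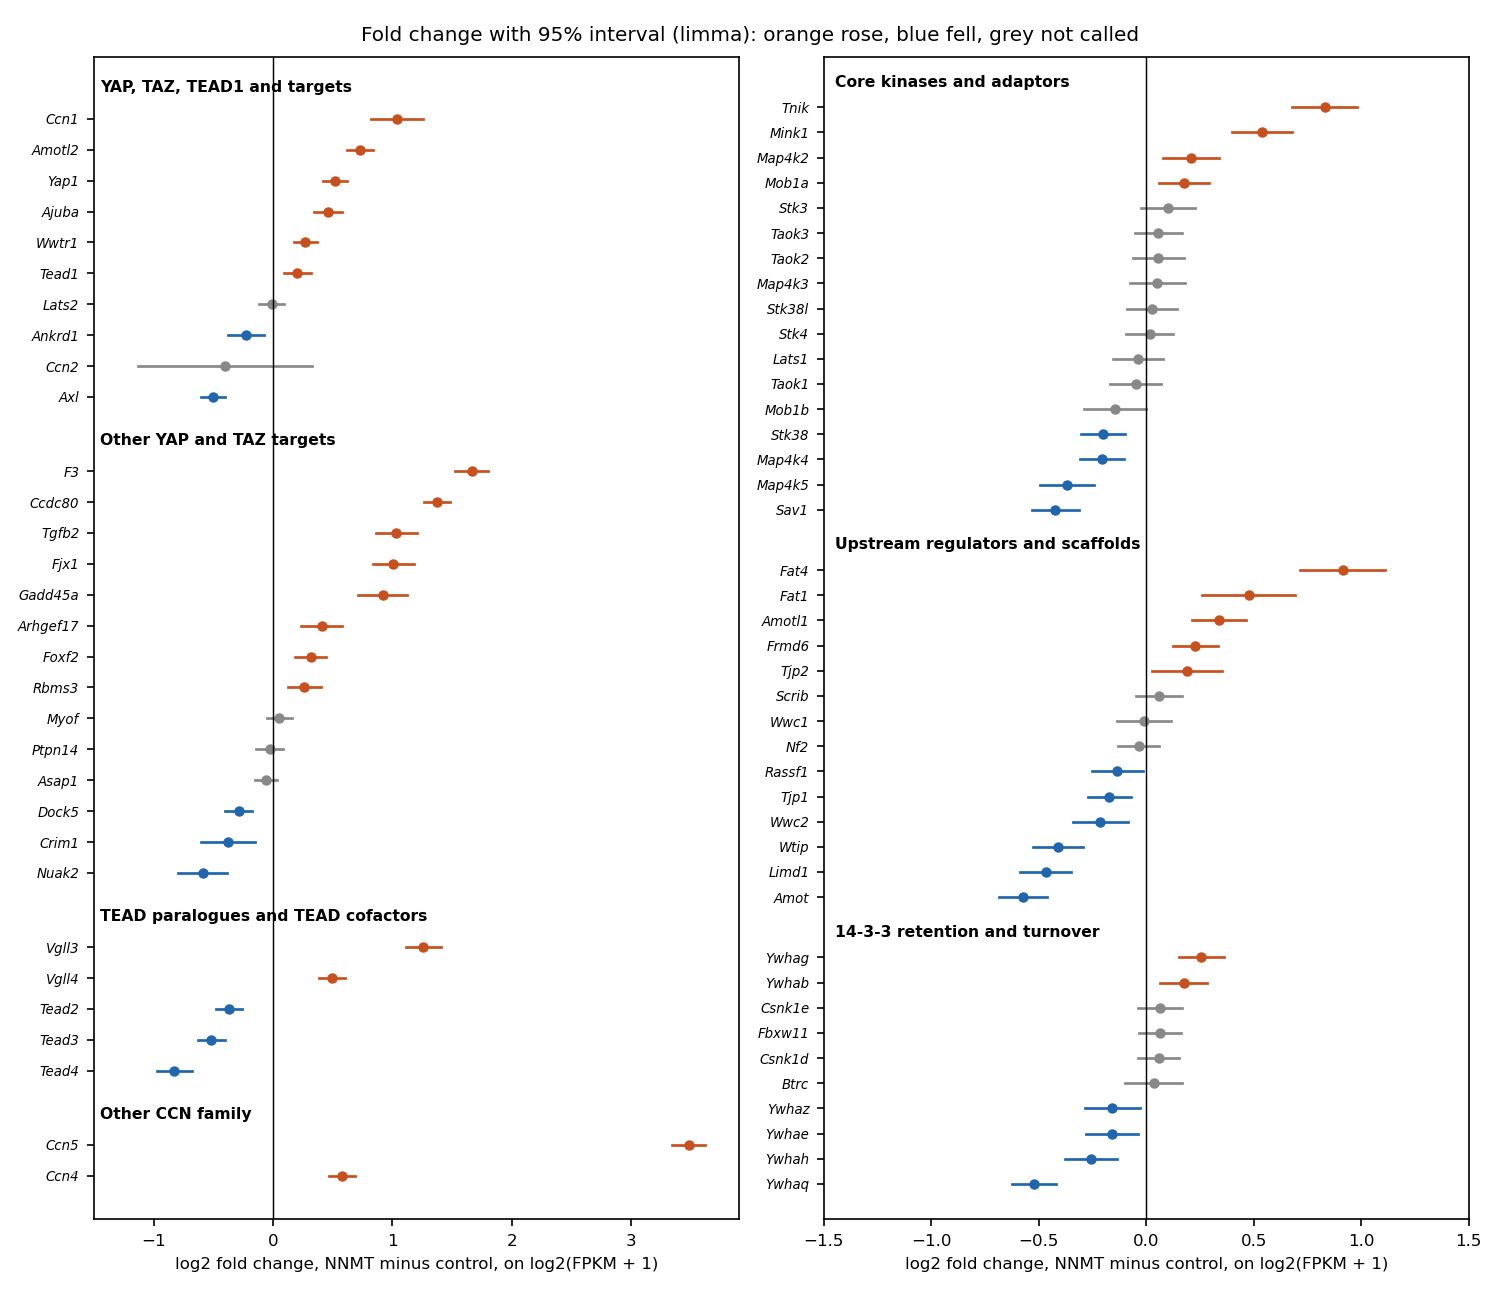
Log2 fold change (NNMT minus control on log2(FPKM + 1), horizontal axes) with its 95% interval from limma for the tested genes of each list except the STRIPAK complex, which is not drawn; orange rose, blue fell, grey not called. The interval of Ccn2 is the widest of the 10 genes, and the kinases, scaffolds and 14-3-3 genes lie on both sides of 0.

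Transcripts of the Hippo pathway itself moved in both directions. The list held 63 genes outside the 10: kinases, scaffolds, the STRIPAK phosphatase complex, 14-3-3 proteins and turnover factors, TEAD factors and their cofactors. Of these, 56 were tested: 15 rose (26.8%, beside 35.0% of all tested genes) and 21 fell (37.5%, beside 30.6%). The share called, 64.3%, is close to the background of 65.6%, and their median log2 fold change was 0.01. With equal FPKM totals 23 rose and 15 fell, where 4737 rose and 2647 fell of all 10889 genes tested. Among 17 tested kinases and adaptors, 4 rose (23.5%, beside 35.0% of all tested genes) and 4 fell (23.5%, beside 30.6%). The core kinases Stk3, Stk4 and Lats1 (named after their values were seen) were not called, with means of 12.9, 9.48 and 13.5 FPKM in control and 13.9, 9.60 and 13.1 in NNMT cells. Sav1, the scaffold that holds Stk3 and Stk4, fell from 34.7 ± 0.936 to 25.6 ± 1.09 FPKM (log2 fold change -0.42, limma adjusted p = 3.12e-05). Of the kinases that can also activate LATS, Tnik rose from 1.24 ± 0.0490 to 2.99 ± 0.195 FPKM, Mink1 from 11.6 ± 0.269 to 17.4 ± 1.52, and Map4k5 fell from 11.9 ± 0.473 to 8.99 ± 0.486.

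Of 14 tested upstream regulators and scaffolds, 5 rose (35.7%, beside 35.0% of all tested genes) and 6 fell (42.9%, beside 30.6%). Besides Amot, Limd1 and Wtip, the strongest by p was Fat4, a giant cadherin of the planar polarity system, which rose from 1.02 ± 0.172 to 2.80 ± 0.302 FPKM (log2 fold change 0.91, limma adjusted p = 9.25e-06). The STRIPAK complex is a phosphatase assembly that removes phosphate from Stk3 and Stk4. In it, 2 of 10 tested genes rose (20%, beside 35.0%) and 4 fell (40%, beside 30.6%). Its striatin scaffold Strn fell from 8.48 ± 0.225 to 6.50 ± 0.278 FPKM, and its component Mob4 fell from 11.7 ± 0.534 to 8.52 ± 0.592.

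The 14-3-3 proteins hold phosphorylated YAP in the cytoplasm. Of 10 tested genes for them and for turnover factors, 2 rose (20%, beside 35.0% of all tested genes) and 4 fell (40%, beside 30.6%). Ywhaq fell from 131 ± 4.47 to 90.5 ± 2.55 FPKM and Ywhah from 132 ± 2.91 to 111 ± 7.53, while Ywhag rose from 195 ± 3.43 to 233 ± 10.4 and Ywhab from 96.8 ± 1.72 to 109.5 ± 5.46. Ywhaq overlaps Gm4419, another tested gene. The ligase subunits and casein kinases that mark YAP and TAZ for degradation (Btrc, Fbxw11, Csnk1d and Csnk1e, named after their values were seen) were not called, with log2 fold changes of 0.03 to 0.06.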

How the data were processed

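RNA of 6 mouse 3T3 libraries was measured, 3 with a control and 3 with an NNMT construct. CASAVA, STAR 2.5 and the build mm10 are named, per the submitters' processing notes; the counter, annotation release and strand rule were not given in the sources used here. A single table was deposited by the authors, with a value per gene and library and no unit, and these deposited values were read as FPKM because the values of a gene are whole multiples of a step. The length of the longest GENCODE M21 transcript gave whole reads for 14597 of 20528 genes above 0 (71.1%), and a length was found for all 20528 with a tolerance of 0.01 of a read. Of 35275 identifiers, 34490 were paired with a GENCODE M21 gene on GRCm38, the assembly mm10 names. The NNMT column without a number was used as the remaining library of its group. Pairs of libraries of a group differed by chi-square values of 5.70 to 20.2 per degree of freedom, and all 6 libraries were kept as separate samples.

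The test was limma 3.58.1, run in R 4.3.3 on log2(FPKM + 1) for the genes whose mean over the 6 libraries reached 1 FPKM (trend, robust, two-sided, Benjamini-Hochberg over all genes tested, threshold 0.05); the design named this test for normalized values. Fold values are ratios of group means. The script was checked on simulated data. Members and lists were chosen with earlier results of these data known. The genes named are all members, up to 4 with the smallest adjusted p from each list, and all of lists with 7 or fewer entries; others are marked, and some results under this rule are not reported here. Coordinates of genes are those of GENCODE M21, and promoter sequences are from RefSeq on GRCm38.p6. Alternatives were other pseudocounts, filters, scalings, moderation, thresholds, limma-voom on recovered reads, a replicate block and leaving out each library.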

Additional observations from a re-analysis of the deposited data

How the results depend on the processing

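Of 200 values of the 10 genes under 20 alternatives, 187 stayed on their side of the threshold, 11 lost a call and 2 gained a call, and no called gene changed sign. Lats2, not called in any, changed sign in 3 (0.06 with equal FPKM totals, and just above 0 without control replicate 2 or NNMT replicate 3). Ccn1 kept its call under all 20. With a log2 fold change of 1 or more in size required, 1 of the 10 genes rose and 0 fell, 4 and 0 of the other targets, 1 and 0 of the Hippo pathway genes, and 449 in place of 7140 genes passed; this follows from the size of the changes. The number of the 10 genes that fell was 1 in place of 2 at an adjusted p under 0.01 and with equal FPKM totals, Ankrd1 being lost each time. Equal totals, chosen after seeing that the FPKM sums differ between the groups, also raised the Hippo pathway genes that rose from 15 to 23. The genes that rose among all tested genes went from 3806 to 4737. A filter at a mean of 5 FPKM left 5 in place of 8 risen targets, because fewer genes were tested. Leaving out 1 library gave 6406 to 7122 genes called, 6 of the 10 genes rising and 1 to 2 falling, 8 targets rising and 2 to 3 falling, and 13 to 14 Hippo pathway genes rising and 17 to 21 falling.

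Only the numbers 2 and 3 are carried by columns of both groups, and the labels do not say that a number marks a shared batch or day. Deviations from the group means correlated across genes at r = 0.21 for the libraries numbered 2 and 0.11 for those numbered 3. The unnumbered library would be replicate 1 by elimination, and its deviations correlated with those of control replicate 1 at 0.31, while the remaining pairs lay between -0.38 and 0.21. If it is replicate 1, all 3 pairs of equal number exceed 0.1, but some pairs of unequal number do so too. NNMT replicate 2 correlated as closely with control replicate 3 as with control replicate 2. NNMT replicate 3 likewise correlated as closely with control replicate 1 (0.11) as with control replicate 3. The correlations therefore do not settle which libraries belong together. With a replicate block over the 4 libraries numbered 2 and 3, 7110 genes were called. Of the 10 genes 6 rose and 3 fell, Ccn2 being added (log2 fold change -0.42, limma adjusted p = 3.09e-08). The p of Ccn2 there rests largely on the spread of other genes, as given above. With a replicate block over all 6 libraries, the unnumbered taken as replicate 1 (chosen after seeing the data), 7549 genes were called and again 6 of the 10 rose and 3 fell, with Ccn2 at -0.40 (limma adjusted p = 0.00492). Neither block changed another call among the 10. Depth did not limit the 10 genes, each with at least 1984 reads per library; precision is limited by the 3 libraries per group.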

Other observations

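The TEAD letters were about as frequent in the promoters of genes that rose as in those of genes that fell. Of 2960 risen genes with a promoter window, 420 held GGAATG on either strand (14.2%), and of 2575 fallen genes 364 did (14.1%). Among the TEAD factors and their cofactors, the letters were in the windows of Vgll3 and Vgll4, which rose, of Tead3, which fell, and of Vgll1, which was listed at 0. Wtip, which fell, held 4 matches in its window, and Wwc2, which fell from 36.7 ± 1.96 to 31.5 ± 1.83 FPKM, held 3. The call of Wwc2 was lost with equal FPKM totals. Mob1a and Fat1, which rose, and Sav1 and Strn4, which fell, also held the letters. These genes are named here after their matches were seen.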
